A study of Mus musculus with 20 samples.

Results

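The comparison described here is the genotype effect shared by both stromal cell populations of the mouse bone marrow. It was computed as the mean of the ko minus wt difference in CAR cells and the ko minus wt difference in PaS cells. All 12 RNA libraries of the series entered it, out of 20 samples in all; the 8 ATAC-seq samples were not analysed here. A gene was a member when at least 3 libraries had 1 FPKM or more (FPKM, the fragments of a gene per kilobase of its transcript, scaled to those mapped in the library). That left 12935 of 24347 listed genes. Col1a1, Col1a2 and Gsn were left out of every count, because each was listed at exactly 0 in a library whose replicates held it at a high level.

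The ko groups were CAR ko and PaS ko, with the genotype Ebf1fl/fl;Prx1+/cre, and their controls were CAR wt and PaS wt, with the genotype Ebf1+/+;Prx1+/cre. Each group had 3 libraries. All mice were C57BL/6 and carried 1 copy of Prx1 cre, so the groups differed in the floxed alleles and not in the recombinase. Prx1 cre acts in limb bud mesenchyme and its descendants, so blood cells were not its target. CAR cells (Cxcl12-abundant reticular cells) were sorted by the absence of CD45, CD31, lineage markers and Sca1 and the presence of PDGFRα; PaS cells differed in being Sca1+. The labels do not give age, sex or pooling, and do not say that replicates came from separate animals, so a p-value here speaks of the spread between libraries, which may be technical.

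Ebf1 is a helix-loop-helix transcription factor that is required for B cell development and is also made in mesenchymal cells. CAR cells lie around the marrow sinusoids, make the chemokine Cxcl12 and stem cell factor, and can give rise to adipocytes and osteoblasts. PaS cells are perivascular and endosteal progenitors with a fibroblast-like programme. Osteoblast genes are driven by the transcription factors Runx2 and Sp7, and cartilage genes by Sox9. A mean over CAR and PaS cells can hide genes that move oppositely in them, so calls in each cell type are given beside it.

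The proximal promoters of 3 genes of bone and its matrix that were higher in ko libraries of both cell types are shown. Each holds the core RUNX motif TGTGGT, here read on the opposite strand as ACCACA. The motif was in 15.0% of all promoter windows searched and in 46.7% of those of the osteoblast list. It was in 19.3% of those of genes higher in both cell types and 21.7% of those lower in both, so it was not particular to the higher genes. Sequences are from RefSeq, assembly GRCm38.p6, written 5′ to 3′ on the strand of the gene, with the motif in capitals. The stretches are chr3:88384547-88384646 on the minus strand for Bglap, chr5:104434931-104435030 on the plus strand for Spp1 and chr9:7272334-7272433 on the plus strand for Mmp13, which all run from 180 to 81 bases before the annotated start.
Bglap: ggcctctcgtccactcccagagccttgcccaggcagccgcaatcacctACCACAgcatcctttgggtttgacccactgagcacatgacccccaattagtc
Spp1: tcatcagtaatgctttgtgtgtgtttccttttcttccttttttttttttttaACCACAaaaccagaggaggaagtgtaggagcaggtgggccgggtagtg
Mmp13: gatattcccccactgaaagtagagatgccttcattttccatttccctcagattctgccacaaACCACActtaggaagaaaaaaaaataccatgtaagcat

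Many bone and cartilage genes were higher in ko libraries of both cell types, with 11 of 23 osteoblast and 8 of 24 chondrocyte genes called higher in both. Another 6 of the 24 chondrocyte genes were called in opposite directions in CAR and PaS cells. Granulocyte genes were lower, with 20 of 23 called lower in both, while the lists of other blood cells held fewer shared calls and the erythroid list none. The averaged effect was called for 1549 genes (12%) at 0.05 after Benjamini-Hochberg adjustment; the adjusted p of any gene below comes from the same two-sided limma test, adjusted over all genes. Of these, 787 were higher (6.08%) and 762 lower (5.89%) in ko libraries. Both cell types were called in the same direction for 316 genes (2.44%), 140 higher (1.08%) and 176 lower (1.36%). All 316 were also called for the average. Another 99 genes (0.765%) were called in both cell types in opposite directions.

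The contrast within CAR cells called 1584 genes (12.2%) and that within PaS cells 962 (7.44%), so the 316 shared genes were 19.95% of the CAR calls and 32.85% of the PaS calls. These contrasts share no library, but both use a common estimate of each gene's spread from all 12 libraries. The labels do not say whether CAR and PaS libraries came from the same animals. The calls in CAR and PaS cells were therefore not taken as independent. Of the 1549 averaged calls, 640 were called in CAR cells and not in PaS cells, 342 in PaS cells and not in CAR cells, and 235 in neither. A further 16 were called in both cell types in opposite directions. The fitted effects had opposite signs for 154 of the 1549, so an averaged call alone does not show a shared direction. The difference of the effects was called for 851 genes (6.58%), among them 360 of the 1549 and 52 of the 316. Across genes the effects in CAR and PaS cells had a Pearson correlation of 0.23 and a Spearman correlation of 0.12, given as a description, since genes of a library are not independent.

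Among genes chosen by these calls, the averaged log2 fold change had a median of 0.64 for the 140 higher genes and -0.95 for the 176 lower genes, against 0.01 for all genes tested. All 140 higher genes and 167 of the 176 lower genes had ko and wt libraries that did not overlap in either cell type. Over all genes tested, that separation held for 410 genes higher in ko (3.17%) and 401 lower in ko (3.1%). A change of more than 2-fold in both cell types was fitted for 12 of the higher and 35 of the lower genes. Fold changes are on the log2(FPKM + 1) scale, which understates the change of genes with low values.

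**Figure D1:**
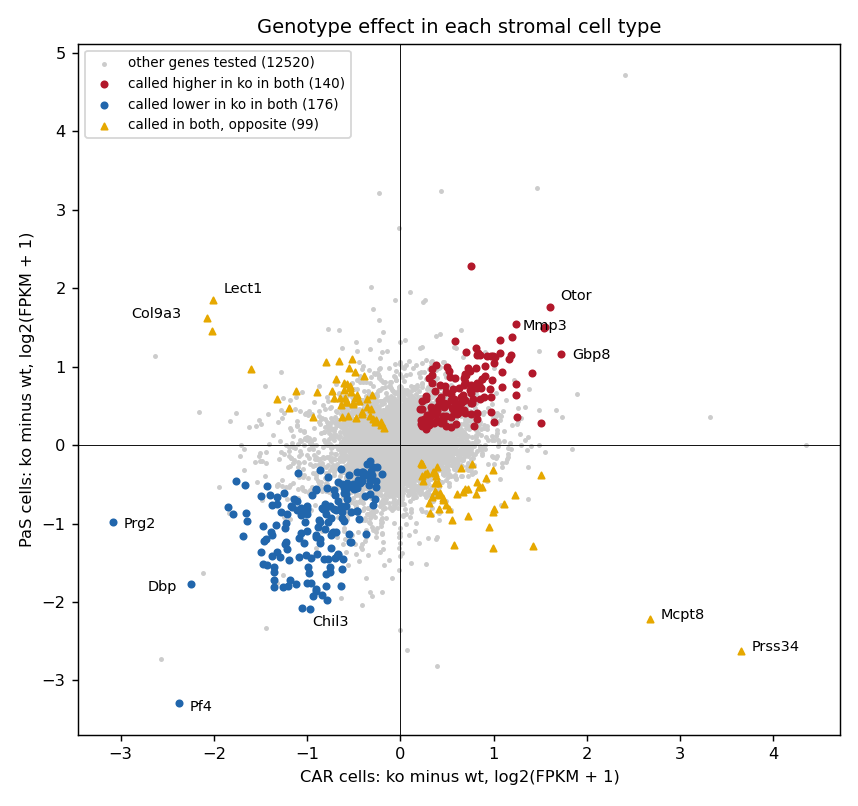
Ko minus wt difference in log2(FPKM + 1) for each of the 12935 genes, with CAR cells on the horizontal and PaS cells on the vertical axis. The 140 genes called higher in both cell types lie upper right, the 176 called lower in both lie lower left, and the 99 called in opposite directions lie in the other corners, with Prss34 and Mcpt8 farthest from the axes.

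Of the 140 genes higher in both cell types, 26 belonged to the bone and cartilage lists, 11 to the matrix lists, 12 to the signalling lists and 0 to the blood-cell lists. Of the 176 lower genes, 37 belonged to the blood-cell lists and 3 to the bone and cartilage lists. No list held 87 of the higher and 115 of the lower genes. How many of all genes tested belong to each class was not counted, so these counts have no background share beside them. Counts of single lists below stand against 12% of all genes tested for the average and 2.44% for calls shared by both cell types.

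**Figure D2:**
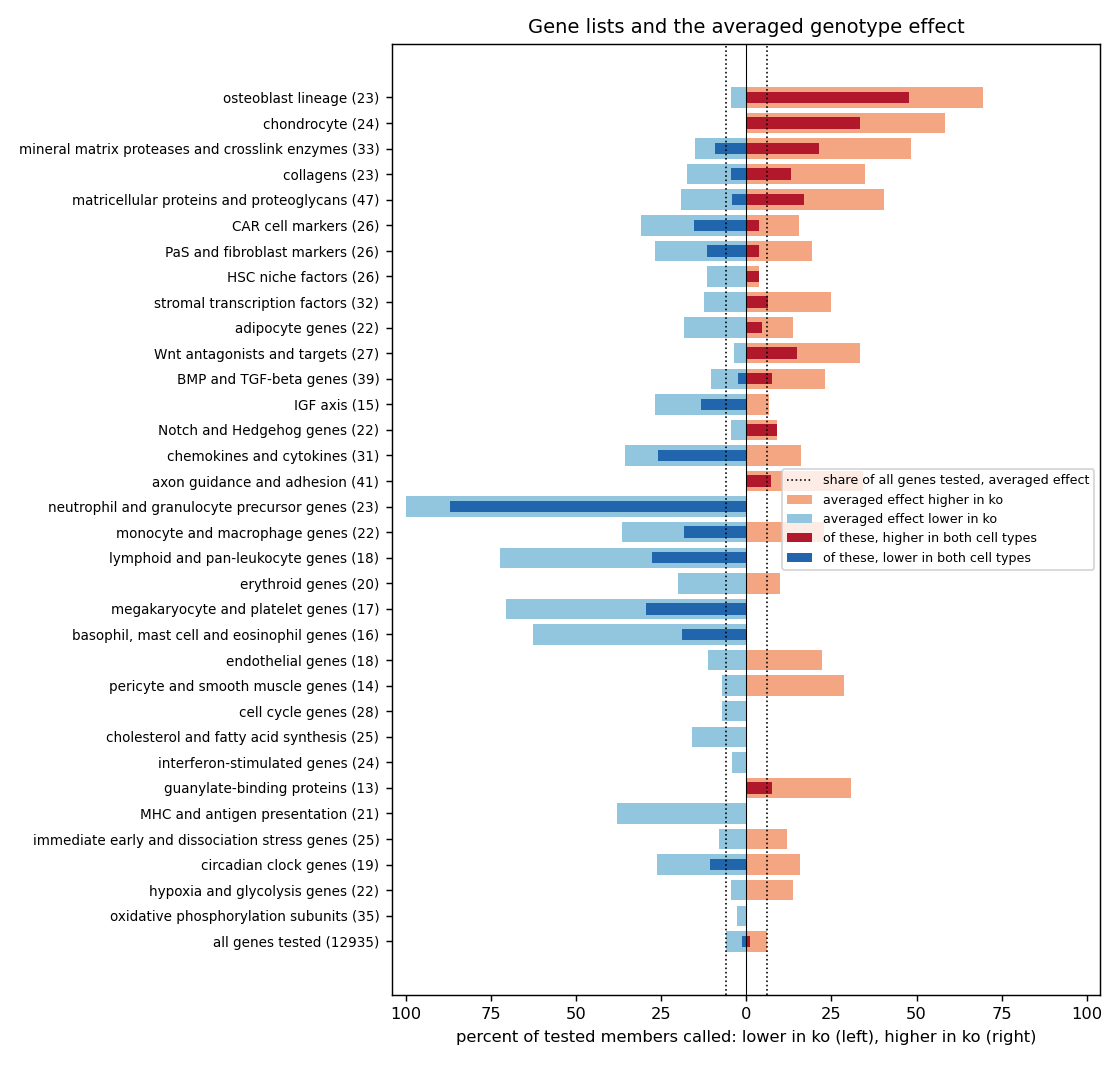
Share of each list's tested members (number in brackets) that was called for the averaged effect, in percent, with genes lower in ko to the left and higher in ko to the right; the narrow dark bars show members called in both cell types, and dotted lines show the share of all genes tested (5.89% lower, 6.08% higher). The osteoblast and chondrocyte bars point right, and the granulocyte bar points left at 100%.

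Ly6a and Lepr differed between CAR and PaS libraries in the direction of the labels. Ly6a, which encodes the sorting antigen Sca1, was at 4.03 to 12.2 FPKM in CAR libraries and 1524 to 2176 FPKM in PaS libraries. Lepr, the leptin receptor of CAR cells, was at 560 to 750 FPKM in CAR and 242 to 270 FPKM in PaS libraries. Libraries summed to 491801 to 526074 FPKM and had 11863 to 12295 genes at 1 FPKM or more. Read counts are not given, so depth is unknown and no interval for counting error can be given. PaS wt replicate 1 listed 24.6% of genes at 0, where the other libraries listed 33.3% to 37.0%. Without it the averaged effect was called for 1286 genes and 266 genes were called the same way in both cell types.

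Ebf1, the targeted gene, had 56.0, 56.7 and 59.8 FPKM in CAR ko, against 48.9, 48.5 and 46.8 FPKM in CAR wt libraries. It had 65.0, 61.9 and 60.8 FPKM in PaS ko, against 55.0, 62.1 and 50.5 FPKM in PaS wt libraries. Ko libraries were all above wt libraries in CAR cells, and the genotypes overlapped in PaS cells through PaS wt replicate 2. The averaged log2 fold change was 0.21 (SE 0.05, adjusted p = 0.017), so Ebf1 was higher, not lower, in libraries labelled ko. An exact permutation test within cell types gave p = 0.015, two-sided, where 0.005 is the smallest that its 400 arrangements allow. A whole-gene FPKM may count reads from exons that the deletion leaves in place, so the values are no check on the labels.

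Genes of the sex chromosomes also differed between the genotypes. Xist, the noncoding RNA of the inactive X chromosome, ranged from 6.68 to 7.54 FPKM in CAR ko and 3.46 to 4.94 FPKM in CAR wt libraries, and from 7.10 to 7.58 FPKM in PaS ko and 3.57 to 6.59 FPKM in PaS wt libraries. The Y-linked gene Eif2s3y ranged from 10.0 to 11.5 FPKM in CAR ko and 17.6 to 22.2 FPKM in CAR wt libraries, and from 7.69 to 11.1 FPKM in PaS ko and 16.8 to 21.2 FPKM in PaS wt libraries. Every library thus held both Xist and Y-linked RNA, and within each cell type the ko libraries had more Xist and less Eif2s3y than any wt library. The exact permutation test gave p = 0.005 for each of Xist, Eif2s3y, Ddx3y and Uty, the smallest it allows, and p = 0.29 for Kdm5d. Tsix, which overlaps Xist on the other strand, was called higher in both cell types, but without strand its reads cannot be told apart from those of Xist. An unequal mix of male and female animals cannot be told apart from the genotype for any gene that depends on sex.

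**Figure D3:**
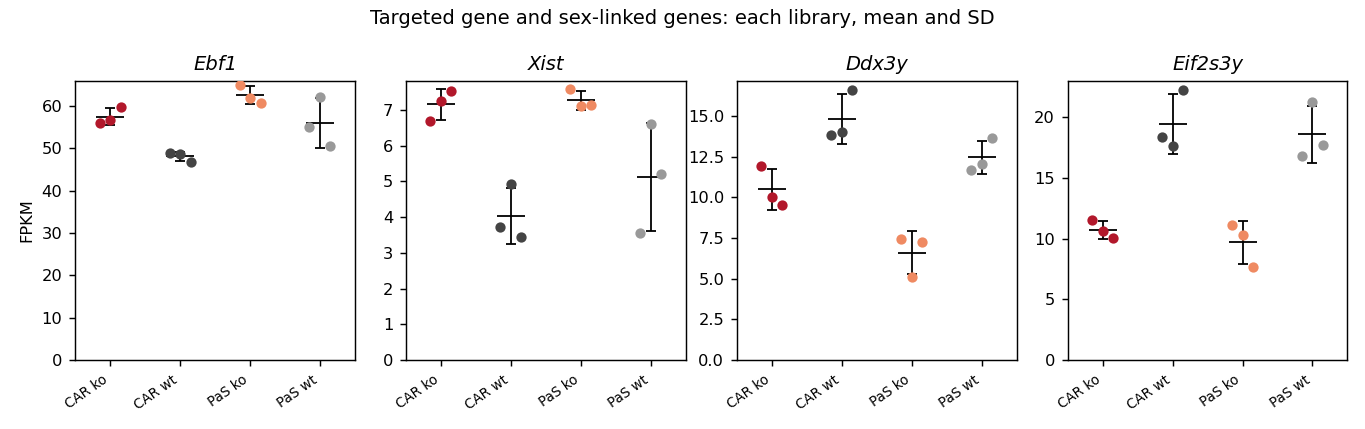
FPKM of Ebf1, Xist, Ddx3y and Eif2s3y in each of the 12 libraries (points), with the mean and SD of the 3 libraries of a group (bars), in the order CAR ko, CAR wt, PaS ko and PaS wt. Ebf1 and Xist sit higher and both Y-linked genes lower in ko than in wt libraries of the same cell type, apart from the overlap of Ebf1 in PaS cells.

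Many osteoblast genes were higher in ko libraries of both cell types. Of 23 tested genes of the osteoblast lineage, 16 rose for the average and 1, Smpd3, fell, and 11 rose in both cell types. The median averaged log2 fold change of the list was 0.45, against 0.01 for all genes. The count of 11 was 7 without CAR wt replicate 1 or CAR wt replicate 3, and 6 with no filter on low values.

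Bglap encodes osteocalcin, the vitamin K-dependent bone matrix protein of mature osteoblasts, and its promoter is printed above. It had 8449, 11940 and 13420 FPKM in CAR ko, against 4122, 5164 and 5586 FPKM in CAR wt libraries. In PaS cells it had 269, 254 and 257 FPKM in ko, against 116, 118 and 130 FPKM in wt libraries. Each ko library lay above every wt library of its cell type, and CAR levels were far above PaS levels. The averaged log2 fold change was 1.13 (SE 0.09, adjusted p = 8.7e-07), with 1.17 in CAR and 1.10 in PaS cells. Bglap2, a near copy that can share reads with Bglap, had 1.17 (SE 0.09).

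Dmp1, a phosphoprotein of osteocytes that controls mineralisation, had 274, 302 and 306 FPKM in CAR ko, against 138, 140 and 140 FPKM in CAR wt libraries. It had 24.1, 16.2 and 14.7 FPKM in PaS ko, against 5.88, 9.20 and 7.35 FPKM in PaS wt libraries. The genotypes did not overlap in either cell type, and PaS ko replicate 1 lay above the other PaS ko libraries. The averaged log2 fold change was 1.12 (SE 0.11, adjusted p = 3.5e-06). Spp1, osteopontin, which also limits the stem cell pool in the marrow, had 17350, 18480 and 18280 FPKM in CAR ko, against 11590, 10450 and 11180 FPKM in CAR wt libraries. In PaS cells Spp1 had 2879, 2665 and 2567 FPKM in ko, against 1362, 1565 and 1448 FPKM in wt libraries. The groups did not overlap, and the averaged log2 fold change was 0.80 (SE 0.05, adjusted p = 1.2e-08).

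Alpl, the alkaline phosphatase that frees phosphate for mineral, had 636, 705 and 709 FPKM in CAR ko, against 318, 375 and 354 FPKM in CAR wt libraries. It had 147, 142 and 135 FPKM in PaS ko, against 90.7, 95.7 and 90.0 FPKM in PaS wt libraries. Ko libraries were higher throughout, by a log2 fold change of 0.97 in CAR and 0.61 in PaS cells. Sp7 (osterix), the transcription factor that commits cells to the osteoblast fate, averaged 51.3 ± 5.49 FPKM in CAR ko and 36.7 ± 4.97 FPKM in CAR wt libraries, and 9.44 ± 1.70 FPKM in PaS ko and 5.17 ± 0.284 FPKM in PaS wt libraries (SD, n = 3 each). Its averaged log2 fold change was 0.61 (SE 0.09, adjusted p = 2.4e-04). Tnfrsf11b encodes osteoprotegerin, the decoy receptor that restrains osteoclasts, and rose by 0.52 in CAR and 0.95 in PaS cells. Smpd3, a sphingomyelinase of the growing skeleton, went the other way in PaS cells, at 0.58 in CAR and -1.27 in PaS cells.

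**Figure D4:**
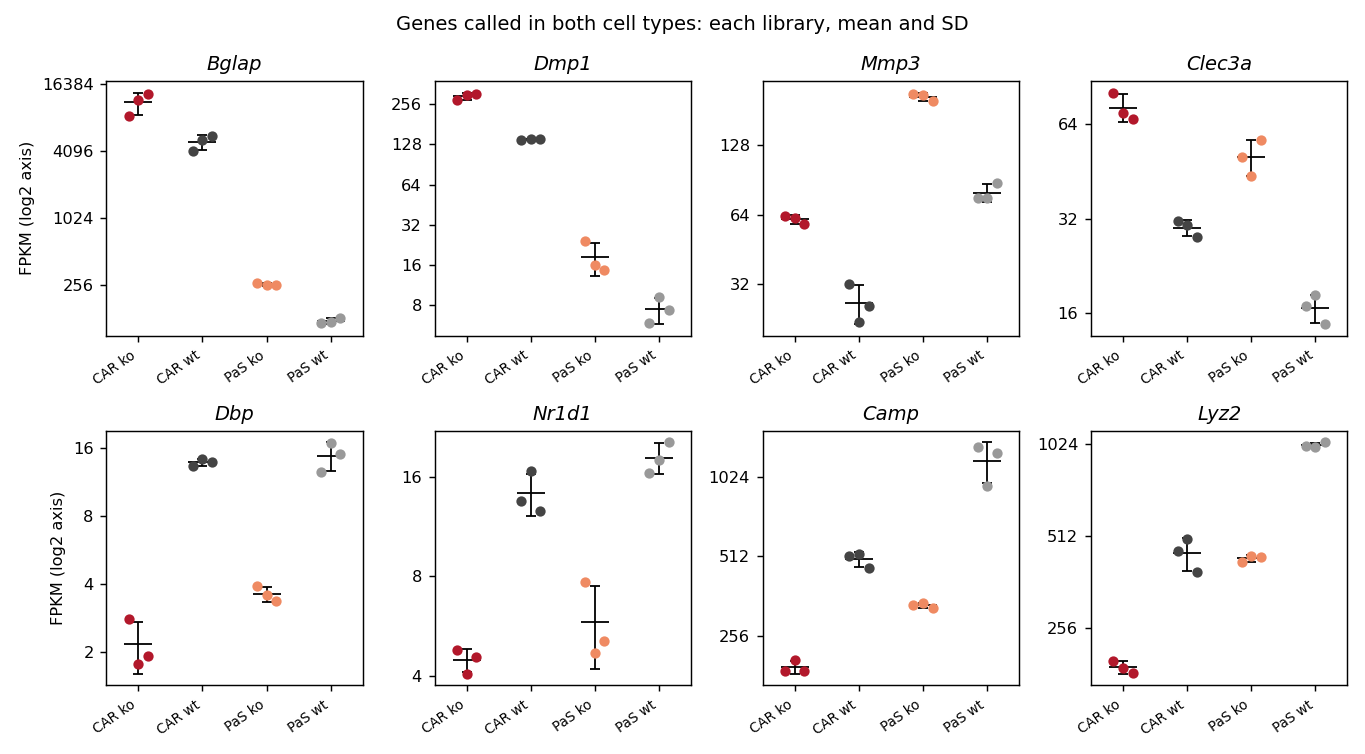
FPKM on a log2 axis of 8 genes called in both cell types, in each library (points) with the mean and SD of the 3 libraries of a group (bars), in the order CAR ko, CAR wt, PaS ko and PaS wt. Bglap, Dmp1, Mmp3 and Clec3a lie higher and Dbp, Nr1d1, Camp and Lyz2 lower in every ko library than in any wt library of the same cell type.

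Cartilage genes rose less uniformly. Of 24 tested chondrocyte genes, 14 rose for the average and 0 fell, 8 rose in both cell types, and 6 were called in opposite directions; with a pseudocount of 5, 3 fell for the average. The list's median averaged log2 fold change was 0.43. Otor, a small secreted protein of cartilage and the inner ear, had the largest averaged rise of the named genes, but at a low level. It was at 4.82, 2.31 and 2.54 FPKM in CAR ko, against 0.402, 0 and 0.736 FPKM in CAR wt libraries. It was at 2.29, 3.54 and 2.78 FPKM in PaS ko, against 0.445, 0 and 0 FPKM in PaS wt libraries. All ko libraries were above all wt libraries, with an averaged log2 fold change of 1.68 (SE 0.18, adjusted p = 1.2e-05).

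Clec3a, a C-type lectin of cartilage, had 80.8, 69.8 and 66.6 FPKM in CAR ko, against 31.4, 30.5 and 28.1 FPKM in CAR wt libraries. In PaS cells it had 50.2, 44.0 and 57.0 FPKM in ko, against 16.8, 18.2 and 14.8 FPKM in wt libraries. No ko library overlapped a wt library, and the averaged log2 fold change was 1.39 (SE 0.07, adjusted p = 5.7e-09). Cilp2, a relative of the cartilage intermediate layer protein, averaged 70.9 ± 0.802 FPKM in CAR ko and 39.3 ± 2.48 FPKM in CAR wt libraries, and 114 ± 11.6 FPKM in PaS ko and 49.7 ± 6.07 FPKM in PaS wt libraries (SD, n = 3 each). Its averaged log2 fold change was 1.01. Fmod, fibromodulin, a proteoglycan that orders collagen fibrils, had 0.77, and Hapln1, the link protein of cartilage aggregates, had 0.95. Col11a1, a fibrillar collagen of cartilage, had 0.90, with 0.81 in CAR and 0.98 in PaS cells.

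Enzymes that cut or crosslink matrix followed the bone genes in part. Of 33 tested genes, 16 rose and 5 fell for the average, and 7 rose and 3 fell in both cell types. The list's median was 0.19. Mmp3, stromelysin, had 63.3, 62.0 and 58.0 FPKM in CAR ko, against 31.8, 21.9 and 25.6 FPKM in CAR wt libraries. It had 215, 212 and 199 FPKM in PaS ko, against 75.6, 75.6 and 87.9 FPKM in PaS wt libraries. The genotypes were separate in both cell types, with an averaged log2 fold change of 1.29 (SE 0.07, adjusted p = 1.3e-08).

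Mmp13, a collagenase of osteoblasts and late chondrocytes whose promoter is printed above, had 2065, 2023 and 2167 FPKM in CAR ko, against 1347, 1203 and 1331 FPKM in CAR wt libraries. It had 526, 492 and 502 FPKM in PaS ko, against 266, 281 and 279 FPKM in PaS wt libraries. Ko libraries were higher without overlap, with an averaged log2 fold change of 0.78 (SE 0.04, adjusted p = 4.1e-09). Plod2, which hydroxylates collagen telopeptides for stable crosslinks, had 0.76 in CAR and 0.77 in PaS cells. The 3 members that fell in both cell types were Mmp9, which granulocytes also make in quantity, the crosslinking enzyme Loxl1 and the procollagen protease enhancer Pcolce2, with averaged log2 fold changes of -0.69, -0.29 and -0.40.

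Collagens as a list did not move one way. Of 23 tested collagen genes, 8 rose and 4 fell for the average (52.2%), and 3 rose and 1 fell in both cell types (17.4%). The list's median was -0.02. The shared count of 4 was 2 without PaS wt replicate 1, without PaS wt replicate 3 or without PaS ko replicate 2. Col4a2, a basement membrane chain, was the member that fell in both. It had 49.8, 55.1 and 51.2 FPKM in CAR ko, against 68.1, 62.5 and 67.6 FPKM in CAR wt libraries. It had 56.5, 59.7 and 59.9 FPKM in PaS ko, against 88.0, 77.9 and 85.0 FPKM in PaS wt libraries. Ko libraries lay below wt libraries in both, with an averaged log2 fold change of -0.42 (SE 0.05, adjusted p = 3.0e-05). Nid1, nidogen, which links laminin to type IV collagen, also fell in both, at -0.29 in CAR and -0.76 in PaS cells.

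Of 47 tested matricellular proteins and proteoglycans, 19 rose and 9 fell for the average, and 8 rose and 2 fell in both cell types, with a median of 0.07. Lum, lumican, a keratan sulphate proteoglycan of collagen fibrils, averaged 1074 ± 70.8 FPKM in CAR ko and 628 ± 20.2 FPKM in CAR wt libraries, and 3009 ± 33.1 FPKM in PaS ko and 2067 ± 96.0 FPKM in PaS wt libraries (SD, n = 3 each). The averaged log2 fold change of Lum was 0.66 (SE 0.04, adjusted p = 2.5e-08). Thbs4, a thrombospondin of tendon and muscle matrix, had 0.72 (SE 0.04), with 0.59 in CAR and 0.85 in PaS cells. Wisp2 (Ccn5), a matricellular protein that is also a CAR cell marker, fell by 0.55 in CAR and by 0.38 in PaS cells.

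Some secreted antagonists and targets of Wnt signalling were higher. Of 27 tested genes of the Wnt list, 9 rose and 1 fell for the average, and 4 rose in both cell types, with a median of 0.22. Wisp1 (Ccn4), a Wnt-induced matricellular protein of osteoblasts, had 54.0, 60.7 and 59.5 FPKM in CAR ko, against 30.0, 27.9 and 32.3 FPKM in CAR wt libraries. It had 7.99, 7.36 and 9.71 FPKM in PaS ko, against 3.64, 2.75 and 3.31 FPKM in PaS wt libraries. No groups overlapped, and the averaged log2 fold change was 1.03 (SE 0.08, adjusted p = 4.1e-07). Dkk1, which blocks the Wnt coreceptor and restrains bone formation, had 13.9, 15.1 and 14.8 FPKM in CAR ko, against 5.72, 4.61 and 6.54 FPKM in CAR wt libraries. In PaS cells Dkk1 was near the limit of the scale, at 0.426, 1.04 and 1.06 FPKM in ko, against 0, 0.172 and 0 FPKM in wt libraries. Wif1, a secreted Wnt inhibitor, had an averaged log2 fold change of 0.53 and Dkk3 0.57.

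In the BMP and TGF-beta list, 9 of 39 tested genes rose and 4 fell for the average (33.3%). In both cell types 3 rose and 1 fell (10.3%). The shared count of 4 was 2 without PaS wt replicate 1 or without PaS ko replicate 3. The decoy receptor Bambi had an averaged log2 fold change of 0.55 and the activin inhibitor Fstl3 0.59. Fst, follistatin, which also binds activin, fell by 0.36. Of 22 tested genes of the Notch and Hedgehog list, 13.6% were called for the average. Gas1 and Hhip were the members called in both cell types (9.09%), and both are Hedgehog-binding membrane proteins. Gas1 had 188, 170 and 176 FPKM in CAR ko, against 113, 105 and 111 FPKM in CAR wt libraries, and 573, 671 and 666 FPKM in PaS ko, against 460, 492 and 484 FPKM in PaS wt libraries. The genotypes were separate, with an averaged log2 fold change of 0.55 (SE 0.05, adjusted p = 1.2e-06).

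Of 15 tested genes of the IGF axis, 1 rose and 4 fell for the average (33.3%). Igfbp4 and Igfbp5, which bind and hold IGFs, fell in both cell types (13.3%). Neither stayed called in both under quantile normalization, without CAR wt replicate 2 or without CAR ko replicate 3, and 1 of them did without CAR wt replicate 1 or 3 or CAR ko replicate 2. Igfbp4 averaged 2669 ± 62.0 FPKM in CAR ko and 3070 ± 4.74 FPKM in CAR wt libraries, and 1149 ± 49.5 FPKM in PaS ko and 1479 ± 88.7 FPKM in PaS wt libraries (SD, n = 3 each). Its averaged log2 fold change was -0.28 (SE 0.04, adjusted p = 1.2e-04). Among 41 tested axon guidance and adhesion genes, 14 rose and 0 fell for the average, and Nt5e, Slit2 and Cadm1 rose in both cell types (5 genes without CAR wt replicate 3). Nt5e encodes CD73, an enzyme that makes adenosine and marks mesenchymal progenitors, and had log2 fold changes of 0.83 in CAR and 0.80 in PaS cells.

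Markers of the sorted populations changed in number but by less. Of 26 tested CAR cell markers, 4 rose and 8 fell for the average, and 1 rose and 4 fell in both cell types, with a median of -0.11; the shared count of 5 was 3 without CAR wt replicate 2 or without CAR ko replicate 3. Cxcl14, a chemokine of CAR cells, had 472, 484 and 520 FPKM in CAR ko, against 645, 684 and 711 FPKM in CAR wt libraries. It had 320, 290 and 288 FPKM in PaS ko, against 441, 424 and 449 FPKM in PaS wt libraries. Every ko library lay below every wt library of its cell type, with an averaged log2 fold change of -0.51 (SE 0.04, adjusted p = 9.3e-07). Cbln1, a secreted synapse organiser of the C1q family that marks CAR cells, fell by 1.00 in CAR and by 0.78 in PaS cells.

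Of 26 tested PaS and fibroblast markers, 5 rose and 7 fell for the average, 1 rose and 3 fell in both cell types, and 6 were called in opposite directions. The shared count of 4 was 2 without PaS wt replicate 1 or without PaS ko replicate 2. Cd34, a sialomucin of progenitors, had 9.37, 9.11 and 7.30 FPKM in CAR ko, against 13.6, 11.7 and 16.4 FPKM in CAR wt libraries, and 442, 472 and 468 FPKM in PaS ko, against 662, 618 and 671 FPKM in PaS wt libraries. The genotypes did not overlap, with an averaged log2 fold change of -0.56 (SE 0.07, adjusted p = 8.4e-05). Pi16, a marker of adventitial fibroblasts, had -0.53 in CAR and -0.85 in PaS cells, but its CAR libraries of the 2 genotypes overlapped. Anxa3, an annexin, had -0.51 (SE 0.05).

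Of 26 tested stem cell niche factors, 1 rose, Spp1, and 3 fell for the average (15.4%, against 12% of all genes tested), and 5 were called in opposite directions. The 3 were Csf1, Bmp6 and Nov, and under the additive model 1 member fell. Bmp6 had a log2 fold change of -0.45 in CAR and -0.006 in PaS cells. Nov had 0.31 in CAR and -0.74 in PaS cells, and lost its averaged call in 14 of 24 alternatives. Cxcl12 averaged 13300 ± 1205 FPKM in CAR ko and 13250 ± 377 FPKM in CAR wt libraries, and 4388 ± 389 FPKM in PaS ko and 4277 ± 84.8 FPKM in PaS wt libraries (SD, n = 3 each). Its averaged log2 fold change was 0.02 (SE 0.05, adjusted p = 0.88), and the sign changed with the scaling and with which libraries were used. Kitl, stem cell factor, had -0.15 (adjusted p = 0.12), Il7, the lymphoid cytokine, 0.11 (adjusted p = 0.63), Lepr -0.12 (adjusted p = 0.21) and the integrin ligand Vcam1 0.13 (adjusted p = 0.17). Of the other Ebf genes, Ebf2 had -0.23 (adjusted p = 0.094), Ebf3 -0.11 (adjusted p = 0.63) and Ebf4 0.18 (adjusted p = 0.56). Among 22 tested adipocyte genes, 3 rose and 4 fell for the average, and Car3, a carbonic anhydrase of fat and muscle, was the member that rose in both. Car3 had 693, 770 and 768 FPKM in CAR ko, against 345, 342 and 372 FPKM in CAR wt libraries, and 26.8, 31.4 and 28.8 FPKM in PaS ko, against 9.11, 11.9 and 11.8 FPKM in PaS wt libraries. The genotypes were separate in both, and the averaged log2 fold change was 1.20 (SE 0.06, adjusted p = 5.7e-09).

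Several genes with no list, and Gbp8 of the guanylate-binding list, were among the largest shared rises. Prss35, a serine protease-like protein, had 68.5, 92.8 and 84.5 FPKM in CAR ko, against 26.1, 27.1 and 28.2 FPKM in CAR wt libraries, and 3.28, 2.68 and 2.44 FPKM in PaS ko, against 0.297, 0.150 and 0.561 FPKM in PaS wt libraries. Slurp1, a secreted Ly6-family protein that acts on nicotinic receptors, had 4.96, 7.35 and 5.94 FPKM in CAR ko, against 1.5, 2.30 and 0.682 FPKM in CAR wt libraries. In PaS cells Slurp1 had 141, 139 and 134 FPKM in ko, against 51.3, 38.0 and 57.4 FPKM in wt libraries. Neither gene overlapped between genotypes, and their main expression lay in different cell types, Prss35 in CAR and Slurp1 in PaS cells. Their averaged log2 fold changes were 1.53 (SE 0.10) and 1.52 (SE 0.14). Gbp8, an interferon-inducible guanylate-binding protein whose reads may be shared with its relatives, had 1.44 and Ndufa4l2, a hypoxia-induced mitochondrial protein, 1.07. The calcium-activated chloride channel Ano1 had 1.02, the tetraspanin Tspan2 1.07 and the lectin ficolin gene Fcna 1.06. In CAR cells Fcna was near the limit of the scale, averaging 1.45 FPKM in ko and 0.267 FPKM in wt libraries. In PaS cells Fcna averaged 112 FPKM in ko and 50.4 FPKM in wt libraries. Of the 13 tested guanylate-binding proteins, 4 rose for the average and Gbp8 was the member that rose in both; the 4 were 2 under the additive model and 0 where the filter was 5 FPKM.

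The largest shared falls outside blood-cell genes were those of Dbp and Nr1d1, genes of the circadian clock. The clock is a feedback loop in which Bmal1 and Clock drive Per, Cry and Nr1d genes and the output factor Dbp. Dbp had 2.80, 1.76 and 1.91 FPKM in CAR ko, against 13.4, 14.3 and 13.9 FPKM in CAR wt libraries. It had 3.92, 3.56 and 3.36 FPKM in PaS ko, against 12.6, 16.9 and 15.0 FPKM in PaS wt libraries. The genotypes were widely separate, with an averaged log2 fold change of -2.01 (SE 0.10, adjusted p = 3.9e-09). Nr1d1, the repressor Rev-erbα, had 4.78, 4.07 and 4.56 FPKM in CAR ko, against 13.5, 16.6 and 12.7 FPKM in CAR wt libraries, and 7.72, 4.71 and 5.12 FPKM in PaS ko, against 16.4, 18.0 and 20.3 FPKM in PaS wt libraries. Its groups did not overlap either, and its averaged log2 fold change was -1.49 (SE 0.11, adjusted p = 2.2e-07). Of 19 tested clock genes, 3 rose and 5 fell for the average, and Dbp and Nr1d1 were the members called in both. Nr1d2 had -0.63 and Per3 -0.62, Cry1 had 0.30 and Rora 0.34; Cry1 was not called without CAR ko replicate 3 or without PaS ko replicate 1. The labels give no time of day for the collection of any library, so a difference in collection time cannot be told apart from the genotype here.

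The promoter of Per3 is shown because it holds the D-box TTATGTAA, the letters bound by Dbp, in capitals at 205 and 158 bases before the start, in the stretch chr4:151044796-151044895 on the minus strand of GRCm38.p6 (RefSeq). It was the 1 of 17 clock gene promoters at hand that held these letters.
Per3: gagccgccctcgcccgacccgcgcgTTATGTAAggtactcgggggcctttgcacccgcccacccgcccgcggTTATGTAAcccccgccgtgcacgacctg

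The summed share of blood-cell transcripts was lower in ko libraries, although the sort gates removed CD45+, CD31+ and Lin+ cells. The blood-cell lists together, 129 genes, held 1.72% to 1.82% of the summed FPKM in CAR ko and 3.47% to 3.95% in CAR wt libraries. They held 2.97% to 3.07% in PaS ko and 6.23% to 6.59% in PaS wt libraries. The genotypes did not overlap in either cell type. The averaged difference was -2.70 percentage points (exact permutation test within cell types, two-sided p = 0.005, the smallest it allows). The lists were chosen with earlier results of these data known. The p-values of this share and of the single-list shares below are therefore descriptions, not independent support. In bulk samples, fewer blood cells and less of these RNAs per cell cannot be told apart, and how far blood-cell RNA bears on the other genes was not tested.

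Granulocyte genes carried most of this share. All 23 tested genes of the neutrophil and granulocyte precursor list fell for the average, 20 of them in both cell types, with a median averaged log2 fold change of -1.30. Their share was 0.959% to 1.10% of FPKM in CAR ko and 2.17% to 2.55% in CAR wt libraries, and 1.53% to 1.57% in PaS ko and 4.90% to 5.12% in PaS wt libraries. Camp, the antimicrobial cathelicidin of secondary granules, had 188, 207 and 188 FPKM in CAR ko, against 512, 525 and 462 FPKM in CAR wt libraries. It had 334, 341 and 327 FPKM in PaS ko, against 1332, 948 and 1267 FPKM in PaS wt libraries. No ko library reached a wt library, and the averaged log2 fold change was -1.58 (SE 0.07, adjusted p = 8.6e-10).

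S100a8, a subunit of the calcium-binding protein calprotectin of neutrophils, was the most abundant of these at 2548, 2333 and 2191 FPKM in CAR ko, against 5763, 5682 and 4826 FPKM in CAR wt libraries. In PaS cells it had 3521, 3283 and 3556 FPKM in ko, against 12320, 10920 and 12790 FPKM in wt libraries. Its fall was larger in PaS than in CAR cells, at -1.80 and -1.20 (adjusted p of the difference = 0.0044). Lyz2, the lysozyme of myeloid cells, had 199, 189 and 181 FPKM in CAR ko, against 456, 499 and 390 FPKM in CAR wt libraries, and 419, 441 and 437 FPKM in PaS ko, against 1011, 1005 and 1041 FPKM in PaS wt libraries. The groups were separate, and the effects of -1.23 in CAR and -1.24 in PaS cells differed by 0.00 (SE 0.10, adjusted p of the difference = 0.99). The proteases Elane, Mpo and Prtn3 of early precursors fell in both cell types, with averaged log2 fold changes of -1.30, -1.09 and -1.01.

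**Figure D5:**
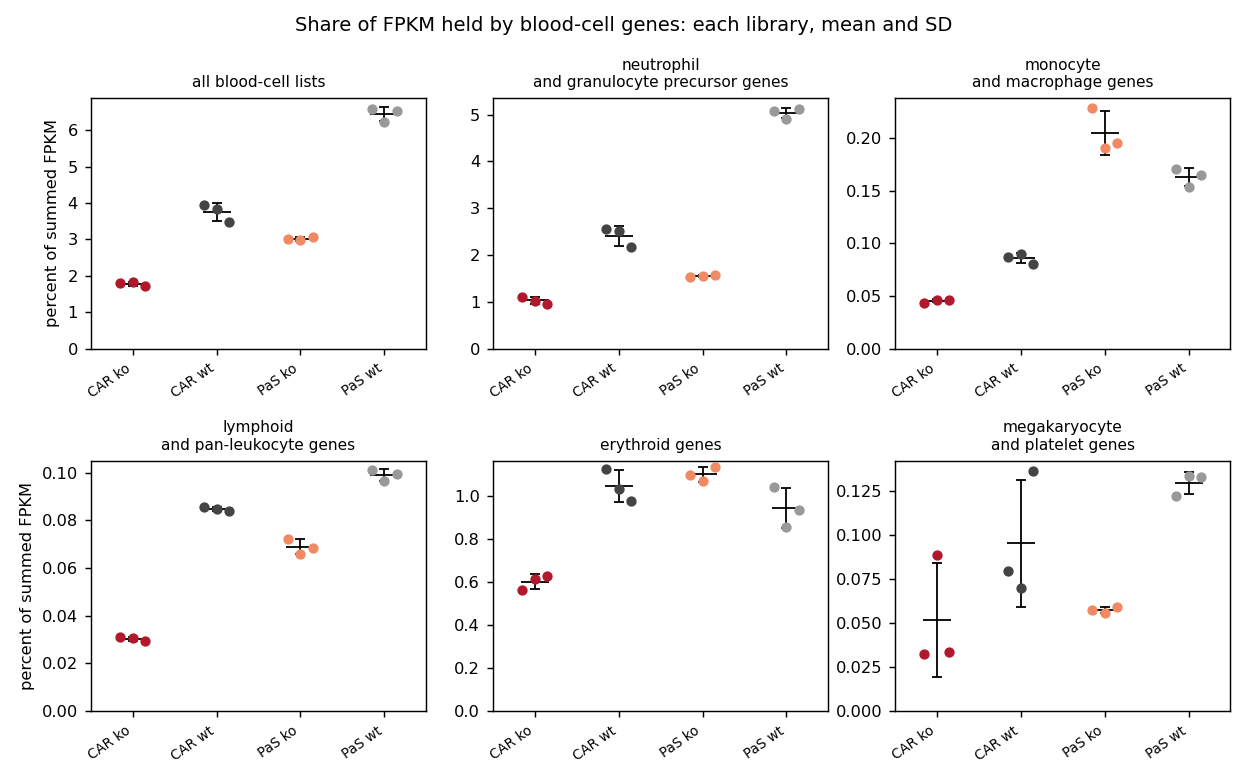
Percent of the summed FPKM held by the blood-cell lists together and by 5 single lists, in each library (points) with the mean and SD of the 3 libraries of a group (bars), in the order CAR ko, CAR wt, PaS ko and PaS wt. The granulocyte share is lower in ko libraries of both cell types, while the macrophage and erythroid shares are lower in ko in CAR cells and higher in ko in PaS cells.

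Other blood lineages agreed less between the cell types. Of 18 tested lymphoid and pan-leukocyte genes, 13 fell for the average and 5 in both cell types, among them Cd52 and the actin regulator Coro1a, at -1.34 and -1.25. Ptprc, which encodes the gating antigen CD45, had 3.19, 2.11 and 2.2 FPKM in CAR ko, against 6.01, 7.98 and 5.38 FPKM in CAR wt libraries, and 8.77, 8.44 and 8.42 FPKM in PaS ko, against 9.67, 14.8 and 11 FPKM in PaS wt libraries. Ko libraries were lower without overlap, with an averaged log2 fold change of -0.75 (adjusted p = 6.0e-04), although the PaS effect alone was not called. Of 22 monocyte and macrophage genes, 8 fell and 5 rose for the average, and 4 fell in both; the 5 were 1 with a pseudocount of 0.1. The complement gene C1qa of tissue macrophages rose in PaS cells by 1.25, with 0.24 in CAR cells (adjusted p of the difference = 0.017). The share of FPKM held by the macrophage list differed by -0.041 points in CAR and 0.042 points in PaS cells, without overlap of the genotypes in either. These cancelled to 0.00 points on average (exact permutation p = 0.98). The erythroid share differed by -0.44 points in CAR and 0.16 points in PaS cells (averaged difference, exact permutation p = 0.17). Of 20 erythroid genes, 4 fell and 2 rose for the average, 0 were called in both in the same direction, and 6 were called in opposite directions. The 4 that fell were 2 without CAR wt replicate 1, CAR ko replicate 1 or 2, PaS wt replicate 1 or 3, or PaS ko replicate 1 or 2, and neither direction had a call under the additive model.

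Of 17 tested megakaryocyte and platelet genes, 12 fell and 0 rose for the average, and 5 fell in both cell types. Pf4, a chemokine stored in platelet granules, had 12.5, 145 and 16.2 FPKM in CAR ko, against 146, 123 and 259 FPKM in CAR wt libraries. It had 31.1, 22.1 and 33.1 FPKM in PaS ko, against 257, 293 and 314 FPKM in PaS wt libraries. CAR ko replicate 2 lay within the CAR wt range, while PaS libraries were separate. The averaged log2 fold change was -2.83 (SE 0.42, adjusted p = 3.0e-04). The 5 genes called in both cell types were 10 without CAR ko replicate 2, and 3 with no filter on low values or with a filter of 5 FPKM. Ppbp, another platelet chemokine, was called for the average at -2.65 but in neither cell type alone, and it too was high in CAR ko replicate 2, at 101 FPKM against 3.02 and 3.83 FPKM in the other CAR ko libraries.

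Of 16 tested basophil, mast cell and eosinophil genes, 10 fell and 0 rose for the average, 3 fell in both, and 2 were called in opposite directions. The shared count of 3 was 1 without PaS wt replicate 3 or without PaS ko replicate 1. Prg2, the eosinophil major basic protein, fell by 3.08 in CAR and by 0.98 in PaS cells. The basophil and mast cell protease Prss34 shows what an average hides. It had 65.4, 52.4 and 50.8 FPKM in CAR ko, against 2.56, 6.72 and 2.35 FPKM in CAR wt libraries, and 3.01, 1.79 and 4.46 FPKM in PaS ko, against 22.1, 24.3 and 23.4 FPKM in PaS wt libraries. It was higher in all CAR ko and lower in all PaS ko libraries, so its averaged log2 fold change of 0.52 was not called (adjusted p = 0.10). Its neighbour in function Mcpt8 and the cartilage genes Lect1, Col9a3 and Col9a2 were also called in opposite directions, with averaged log2 fold changes of 0.23, -0.08, -0.23 and -0.28.

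Markers of other cell types were called for the average in part. In both cell types 0 were called, against 2.44% of all genes tested. Lists this small cannot set 0 apart from that share. Of 18 endothelial genes, 4 rose and 2 fell for the average (33.3%, against 12% of all genes tested), although the CD31 gate removes endothelial cells. Of 14 pericyte and smooth muscle genes 4 rose and 1 fell (35.7%), of 7 tested skeletal muscle genes 1 rose (14.3%), and of 7 tested Schwann and nerve genes 1 fell (14.3%). A single endothelial gene was called in both without CAR wt replicate 2 or CAR ko replicate 2, and a single pericyte gene without CAR wt replicate 3. How far such cells bear on the other genes was not tested. Pecam1, the gating antigen CD31, was at 1.42 to 2.05 FPKM in CAR ko and 1.33 to 2.03 FPKM in CAR wt libraries, and at 4.0 to 5.51 FPKM in PaS ko and 5.29 to 6.14 FPKM in PaS wt libraries. Of 28 cell cycle genes, 2 fell for the average (7.14%), 6 were called in opposite directions and 12 differed between the cell types; the 2 were 1 without CAR ko replicate 2 or 3, PaS wt replicate 2 or PaS ko replicate 1. Of 35 oxidative phosphorylation genes 1 fell (2.86%) and of 24 interferon-stimulated genes 1 fell (4.17%) for the average. Of 21 genes of antigen presentation 8 fell (38.1%). In each of these lists 0 were called in both cell types in the same direction, which also cannot be set apart from the 2.44%.

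Shared calls were found on every autosome. The averaged effect was called for 9.73% to 14.5% of the tested genes of each autosome and the shared effect for 1.33% to 4.09%. On the X chromosome 33 of 426 tested genes were called for the average (7.75%) and 4 in both cell types (0.939%), a lower shared percentage than on any autosome. On the Y chromosome 3 of 4 tested genes were called for the average (75.0%) and 2 in both cell types (50.0%). Ebf1 lies at chr11:44618100-45008096 on the plus strand of GRCm38.p6. Within 5 Mb of its start, 8 of 31 tested genes were called for the average (25.8%), and within 10 Mb 15 of 93 (16.1%), against 12.1% over chromosome 11. Of these neighbours, Thg1l, a tRNA-histidine guanylyltransferase, rose in both cell types, by 0.75 in CAR and 0.54 in PaS cells, and Pttg1, securin, fell in both, at -0.40 and -0.34.

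Promoter windows of 300 bases, 250 before to 50 after the annotated start, were at hand for 9773 of the 12935 genes. The palindromic EBF motif TCCCNNGGGA, searched on both strands, was in 1.32% of them. It was in 2 of 88 promoters of genes higher in both cell types (2.27%), Arvcf and Tspan2, and in 0 of 129 of genes lower in both. The motif TGTGGT, on both strands, was in 15.0% of all windows, in 17 of 88 of the higher genes (19.3%), in 28 of 129 of the lower genes (21.7%) and in 7 of 15 of the osteoblast list (46.7%). The D-box TTATGTAA, on both strands, was in 0.655% of all windows, in 0 of 88 of the higher genes and in 3 of 129 of the lower genes (2.33%), Ifitm6, Lcp1 and Olfm4. These matches are descriptions of letters, not of binding. The Tspan2 promoter is shown with its EBF motif in capitals at 111 bases before the start, in the stretch chr3:102735055-102735154 on the plus strand of GRCm38.p6 (RefSeq).
Tspan2: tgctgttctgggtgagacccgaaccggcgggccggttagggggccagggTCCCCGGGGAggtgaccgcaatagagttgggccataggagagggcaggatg

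Of the 235 genes called for the average and in neither cell type alone, 121 were higher and 114 lower. They are genes whose CAR and PaS effects had the same sign and fell short separately. Gp9 and Gp5, subunits of the platelet glycoprotein Ib complex, had averaged log2 fold changes of -1.46 and -1.19. Jchain, the joining chain of secreted antibodies, had -1.88 and the eosinophil peroxidase gene Epx -1.06. Uty, on the Y chromosome, had -0.71. Several of these calls did not hold under the alternatives: Epx lost its call in 11 of 24, among them each CAR ko or PaS library left out, Jchain and Gp9 in 6 of 24 each, Gp5 in 3 of 23 and Uty in 1 of 23. Without CAR ko replicate 1 or without CAR ko replicate 3, Epx, Jchain, Gp9 and Gp5 were not called.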

How the data were processed

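RNA was isolated with a column kit, enriched with oligo dT beads and, per the labels' protocols, made into SMART-Seq v4 libraries. TopHat2 2.0.14, Cufflinks 2.2.1 and Cuffnorm 2.2.1 with the build mm10 are named in the submitters' processing notes, without their order; the gene annotation and any use of strand are not given in the sources used here. The authors deposited FPKM, as 1 table for each library with 24347 gene symbols, per the file headers. No read counts were at hand, so a test on the log scale was used, and the number of libraries limits the precision. Reads of overlapping and antisense genes cannot be told apart, and near-identical genes (Bglap and Bglap2, hemoglobin, Gbp, Ear and H2 genes) can share reads.

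Genes that reached 1 FPKM in 3 or more libraries, 12938 in all, were put on the scale log2(FPKM + 1). Means of the 4 groups were estimated by limma 3.58.1 (lmFit, then contrasts.fit, then eBayes with trend; R 4.3.3), with 8 residual and 6.95 prior degrees of freedom, and p-values were adjusted over all genes. Col1a1, Col1a2 and Gsn were fitted but not described. Single values per library were compared with an exact permutation test that exchanged genotypes within each cell type. The fits were tested on simulated data. Errors beside FPKM are SDs of 3 libraries and errors beside fold changes are model SEs. A share of FPKM is the summed FPKM of a list over that of the library; genes that also stand in a list of other cells were left out of the blood share.

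The members and the 36 gene lists were chosen with earlier results of these data known, so the lists' counts are descriptions without a test. The permutation p-values of the lists' shares are descriptions for the same reason. Named genes were the 15 higher and 15 lower genes with the largest smaller effect among those called in both cell types without overlap, up to 4 members of each list by p, 16 fixed genes, and the 5 largest opposite effects. Predicted and small RNA genes were not named. Sp7, Tnfrsf11b, Smpd3, Col11a1, Hapln1, Loxl1, Pcolce2, Nid1, Fst, Cd34, Pi16, Pf4, Ppbp, Tsix, Thg1l, Pttg1, C1qa, Elane, Mpo, Prtn3, Mmp9, Cry1, Rora, Kdm5d, Arvcf, Ifitm6, Lcp1, Olfm4, the genes of the closing observations and the genes called for the average alone were chosen after their values were seen. A result that is withheld is not reported here.

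The settings varied were the pseudocount (0.1 or 5), the filter (none, or 5 FPKM), the scaling (median ratios, or quantile normalization), library weights, an additive model, failed zeros set to missing, small RNA and predicted genes left out, the replicate number as a block, and each library left out. Promoters, positions and motifs are from RefSeq tables of GRCm38.p6, with 12896 of the 12935 genes placed. Plots used matplotlib 3.10.9 and Python 3.11.15.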

Additional observations from a re-analysis of the deposited data

Results flagged for a closer look

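The genes below had an effect in CAR cells that differed from that in PaS cells, by the test of the difference itself in the same limma fit (adjusted p under 0.05). Differences are the CAR effect minus the PaS effect, each ko minus wt on the log2(FPKM + 1) scale. For 5 genes called in both cell types with opposite signs, an averaged effect that was not called stood beside large differences. These were 6.28 for Prss34, 4.90 for Mcpt8, -3.86 for Lect1, -3.69 for Col9a3 and -3.47 for Col9a2. Of all 99 genes called with opposite signs, 16 were called for the average. Smpd3 differed by 1.85, with a rise in CAR and a fall in PaS cells. Ly6a, which encodes the gating antigen Sca1, differed by 1.10.

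Among genes called in the same direction in both cell types, the rises of Alpl, Ank and Tmem119 were larger in CAR cells, by 0.36, 0.55 and 0.48, and that of Dkk3 was larger in PaS cells, with a difference of -0.44. The falls of S100a8 and Nid1 were larger in PaS cells, by 0.60 and 0.46. Those of the precursor proteases Mpo, Prtn3 and Elane and of Prg2 were larger in CAR cells, with differences of -1.15, -0.76, -0.68 and -2.10. C1qa, called in PaS cells alone, differed by -1.01. The fall of Ifitm6 was larger in PaS cells, by 1.13, and that of Lcp1 larger in CAR cells, with a difference of -0.838.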

How the results depend on the processing

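The count of genes called for the averaged effect, 1549, was 1249 to 1407 without any single library and 1359 to 1694 under the other settings, except the additive model, which gave 1011 (498 higher, 513 lower) and kept all 1011 within the 1549; its construction puts differences between the cell types into the residual spread. The count called in the same direction in both cell types, 316, was 257 to 297 without any single library and 238 to 346 otherwise, with 238 where no filter was used. The averaged difference in the blood-cell share, -2.70 percentage points, was -2.77 to -2.65 without any single library. With replicate numbers averaged over cell types it was -2.70 with p = 0.1, the smallest that an exact test of 3 against 3 allows.

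Same-numbered libraries of different groups had deviations that correlated between -0.0418 and 0.188 over 18 pairs, and 3 pairs were above 0.1, so the numbers were not taken to pair the samples. With the replicate number as a fixed replicate block, 1532 genes were called for the average and 324 in both cell types; with a random block by genotype and number the counts were 1515 and 317.

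Over the named genes, 2 changed sign, and neither was called. Cxcl12 had an averaged log2 fold change of 0.02, but -0.17 under quantile normalization (adjusted p = 0.25), -0.019 to 0.0394 without any single library, below 0 without CAR ko replicate 1 or PaS ko replicate 1. Ifitm3 had -0.12, but 0.00275 under quantile normalization; the cause was not tested. Of 5380 values of 225 named genes under the alternatives, 5215 kept their direction and their side of the threshold, 136 lost the call and 25 gained it. Depth is unknown, so changes of genes near 1 FPKM, such as Otor and Dkk1 in PaS cells, cannot be given a counting error.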

Other observations

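Among the 87 genes higher in both cell types that no list held, several are known from bone and cartilage; they were chosen after their values were seen. Clec11a, a growth factor of the marrow stroma that promotes bone formation, had 197, 205 and 184 FPKM in CAR ko, against 126, 134 and 134 FPKM in CAR wt libraries, and 154, 156 and 145 FPKM in PaS ko, against 93.5, 93.4 and 88.0 FPKM in PaS wt libraries. The genotypes did not overlap, with an averaged log2 fold change of 0.64 (SE 0.04, adjusted p = 5.7e-08). Panx3, a channel of osteoblasts and chondrocytes, had 0.79, Tmem119, a membrane protein of osteoblasts, 0.58, and Ank, which exports pyrophosphate and so holds back mineral, 0.70. Cytl1, a secreted protein of cartilage, had 0.75 and Cthrc1, a secreted protein of remodelling matrix, 0.73. Kera, keratocan, a proteoglycan related to lumican, averaged 3.31 ± 0.662 FPKM in CAR ko and 1.40 ± 0.562 FPKM in CAR wt libraries, and 48.6 ± 2.78 FPKM in PaS ko and 21.5 ± 2.38 FPKM in PaS wt libraries (SD, n = 3 each).

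Among the 115 lower genes that no list held, a few known from myeloid cells and platelets are given here; they were also chosen after their values were seen. Spi1, the transcription factor PU.1 of myeloid and B cells, had an averaged log2 fold change of -0.93 (SE 0.10, adjusted p = 8.8e-06). Itgb2, the leukocyte integrin chain CD18, had -1.11 and C5ar1, a complement receptor of neutrophils, -1.03. Tubb1, the tubulin of platelets, fell by 1.19 in CAR and by 1.47 in PaS cells. Genes with their main expression in PaS stroma also fell in both. Axl, a receptor tyrosine kinase, averaged 17.2 ± 0.787 FPKM in CAR ko and 21.8 ± 2.10 FPKM in CAR wt libraries, and 148 ± 13.3 FPKM in PaS ko and 227 ± 4.43 FPKM in PaS wt libraries (SD, n = 3 each), with an averaged log2 fold change of -0.47. Wnt11, a noncanonical Wnt ligand, had -0.62 in CAR and -0.85 in PaS cells.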
